A study of Rattus norvegicus with 8 samples.

Results

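The liver both makes glucose and uses it, and 32 genes of these routes were followed in the livers of weanling rats. They encode the enzymes of gluconeogenesis and glucose release, the carriers and kinases of glucose uptake, the enzymes of glycogen, the enzymes of glycolysis, ketohexokinase of the fructose route, and 3 regulators. The genes were chosen by name, and the brightest Cy5 probe stood for each gene. Of the 32 genes, 31 had a named probe among 30367 probes, and 28 were bright enough to be tested among 10566 genes or unnamed probes. Foxo1, a transcription factor of the fasting response, had no named probe. Hk2, Ppargc1a and Pfkfb3 had probes that were not well above background on any array.

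In the 0.5MAhR group, dams of the Sprague-Dawley strain were dosed in corn oil through pregnancy and nursing, and their male pups were sampled at 21 days of age. The dose held a mixture (0.5 mg/kg/day) of methyl mercury, polychlorinated biphenyls and organochlorine pesticides. To this were added dibenzodioxins, dibenzofurans and non-ortho polychlorinated biphenyls, which activate the aryl hydrocarbon receptor (AhR), at 6.3 ng/kg/day of dioxin equivalents. Control rats were of the same age, sex and strain, and their mothers received corn oil alone. Pups of both groups stayed with their own mothers. Each array held liver RNA pooled from 2 pups, so 8 pups of each group gave 4 arrays of 0.5MAhR (replicates 1 to 4) and 4 arrays of Control (replicates 5 to 8). The labels do not say which litters the pools came from, so p-values measure the spread between pools.

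Gluconeogenesis turns lactate and amino acids into glucose during fasting and nursing, through pyruvate carboxylase, phosphoenolpyruvate carboxykinase, fructose bisphosphatase and glucose-6-phosphatase. Glycolysis runs from glucose to pyruvate, sharing the reversible steps with gluconeogenesis, and glycogen stores glucose between meals. In rats, dioxin at toxic doses is known to lower hepatic phosphoenolpyruvate carboxykinase, and the AhR acts by binding DNA at dioxin response elements with the core GCGTG. The suckling pup lives on milk rich in fat and poor in carbohydrate, so its liver relies on gluconeogenesis until weaning.

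Every value below is a log2 ratio of liver RNA in Cy5 over a reference RNA in Cy3, shared by all arrays and made from 14 rat cell lines, unless it is named as a difference between groups. A ratio of 0 means equal signals in liver and reference, and a difference of 1 is 2-fold. All arrays lay on 1 slide in 2 columns, and each column held 2 arrays of 0.5MAhR and 2 of Control. The columns stood apart, with correlations of 0.981 to 0.991 between arrays of a column and 0.938 to 0.962 between columns. The column was therefore fitted in limma beside the group, and 5 of 10566 genes (0.0473%) passed an adjusted p under 0.05 for the group, or 1 to 11 with 1 array left out in turn. Array medians in Cy5 were 81 to 94 in 0.5MAhR and 83 to 93 in Control, over backgrounds of 68 to 73 in both. Hepatocyte markers averaged 6.73 to 6.83 in 0.5MAhR and 6.83 to 7.04 in Control, far above the reference on every array, as is usual for liver. Of 4 skeletal muscle markers, 0 were bright enough to be tested.

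None of the 28 measured genes passed the adjusted threshold, and their smallest adjusted p was 0.591. Without the slide column in the fit none passed either, beside 0.00946% of all genes. The differences were small, from -0.29 for G6pc to 0.38 for Pck2, with 14 genes higher in 0.5MAhR and 14 lower. Their median was -0.0012, beside -0.0077 over all genes tested, and 50% were above 0 beside 46.8% of all genes. The limma 95% interval of the difference lay within 1.5-fold either way for 26 of the 28 genes, all but Pck2 and G6pc. It lay within 2-fold for all 28. Small differences were common on these arrays, with 92.9% of the members and 94.8% of all genes tested under 0.25 in size. At an unadjusted p under 0.05 stood 4 members, 14.3% beside 6.34% of all genes tested. Pck2, Pgk1 and Ugp2 were higher in 0.5MAhR, as 3.5% of all genes were, and Fbp1 was lower, as 2.84% were. Without replicate 3 of 0.5MAhR, or without replicate 8 of Control, Fbp1 and Ugp2 no longer stood there, which left Pck2 and Pgk1. With slide row fitted beside the column, Ugp2 alone of the 4 no longer stood there. Without the column in the fit 0 members stood there, beside 1.53% of all genes, and their smallest unadjusted p was 0.0621. No member had groups that did not overlap over all 8 arrays, as 1.32% of all genes had.

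**Figure D1:**
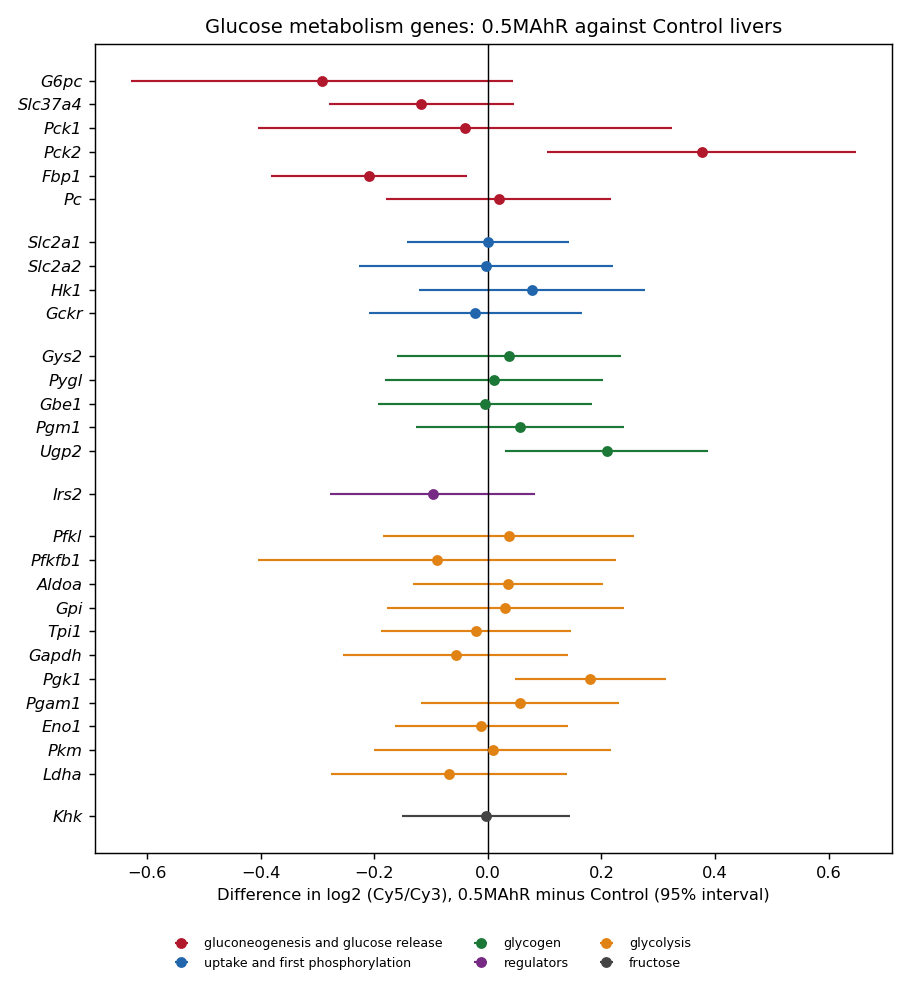
Difference in log2 ratio, 0.5MAhR minus Control, for the 28 measured genes by pathway arm, with limma's 95% interval (4 arrays a group, slide column fitted). The points run from -0.29 for G6pc to 0.38 for Pck2, and the intervals of 4 genes, Pck2, Fbp1, Ugp2 and Pgk1, leave out 0.

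G6pc is the catalytic subunit of glucose-6-phosphatase, the last step of glucose production. The phosphoenolpyruvate carboxykinases, Pck1 in the cytosol and Pck2 in mitochondria, act near its start. Their promoters are shown because AhR agonists were part of the dose and because Pck1 and Pck2 catalyse the same reaction in different compartments. The windows run from 250 bases before to 50 after the start site, on the plus strand of RefSeq assembly GRCr8, at chr10:86807409-86807708 for G6pc, chr3:182348322-182348621 for Pck1 and chr15:32997603-32997902 for Pck2. Capitals mark GCGTG or its reverse complement CACGC, and ACGTCA, a core of the cAMP response element through which glucagon acts.
G6pc: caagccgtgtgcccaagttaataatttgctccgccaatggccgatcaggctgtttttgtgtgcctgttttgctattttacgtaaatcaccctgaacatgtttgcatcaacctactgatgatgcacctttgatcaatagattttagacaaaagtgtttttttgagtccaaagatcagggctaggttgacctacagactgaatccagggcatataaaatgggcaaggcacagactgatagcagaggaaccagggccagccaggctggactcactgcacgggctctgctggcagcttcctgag
Pck1: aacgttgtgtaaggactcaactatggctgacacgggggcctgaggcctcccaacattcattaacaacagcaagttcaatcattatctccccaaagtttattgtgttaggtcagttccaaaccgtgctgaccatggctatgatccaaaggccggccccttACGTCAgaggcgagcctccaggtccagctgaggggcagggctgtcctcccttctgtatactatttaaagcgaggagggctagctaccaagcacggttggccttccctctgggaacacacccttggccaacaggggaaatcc
Pck2: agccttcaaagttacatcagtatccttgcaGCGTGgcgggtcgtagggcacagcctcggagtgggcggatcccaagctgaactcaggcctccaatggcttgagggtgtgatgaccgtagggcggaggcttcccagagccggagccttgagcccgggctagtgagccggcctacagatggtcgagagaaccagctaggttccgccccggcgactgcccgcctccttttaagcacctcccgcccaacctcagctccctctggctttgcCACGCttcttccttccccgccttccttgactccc
The Pck2 window held GCGTG at base -220 from the start site and on the other strand at base 17. The Pck1 window held ACGTCA at base -91, and the G6pc window held neither motif. Both strands were searched, and no matches overlapped in these windows. GCGTG was present in 14 of 29 members with a promoter in the table (48.3%), beside 49.8% of the promoters of 5750 tested genes. ACGTCA was present in 17.2% of the members and 12.2% of those genes, and the E-box CACGTG, which carbohydrate-sensing factors bind, in 6.9% and 9.83%. These are matches of letters and were not tested as sites.

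In the gluconeogenesis arm, 2 of 6 genes were higher and 4 lower, with a median difference of -0.08. Pck2 had ratios of -1.47, -1.53, -0.90 and -1.72 in 0.5MAhR, against -1.98, -1.68, -1.81 and -1.65 in Control. The liver was below the reference on every array, replicate 3 of 0.5MAhR was highest, and the groups overlapped only through replicate 4 of 0.5MAhR. Pck2 averaged -1.41 ± 0.35 in 0.5MAhR and -1.78 ± 0.15 in Control (SD, n = 4 each). The difference was 0.38 (SE 0.12, 95% interval 0.10 to 0.65), or 1.30-fold (limma, unadjusted p = 0.0119, adjusted p = 0.591). Without replicate 3 of 0.5MAhR it was 0.24. Its background-subtracted Cy5 intensity was 170, 179.5, 478.5 and 230.5 in 0.5MAhR and 118, 164.5, 172 and 223.8 in Control.

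Fbp1, fructose-1,6-bisphosphatase, had ratios of 8.11, 8.08, 7.95 and 8.32 in 0.5MAhR, against 8.37, 8.21, 8.39 and 8.32 in Control. Replicate 3 of 0.5MAhR was lowest, and replicate 4 of 0.5MAhR stood among the Control arrays. Fbp1 averaged 8.11 ± 0.15 in 0.5MAhR and 8.32 ± 0.08 in Control (SD, n = 4 each), a difference of -0.21 (SE 0.08, 95% interval -0.38 to -0.04; limma, unadjusted p = 0.0230, adjusted p = 0.683). In the Cy5 channel alone the difference was -0.05, with an unadjusted p of 0.600 from limma. In the Cy3 reference channel alone it was 0.08, with an unadjusted p of 0.351 from limma.

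G6pc had ratios of 4.86, 4.64, 4.62 and 5.45 in 0.5MAhR, against 5.30, 4.98, 5.41 and 5.04 in Control. Of the 0.5MAhR arrays 3 were below all Control arrays and replicate 4 was above all of them. G6pc averaged 4.89 ± 0.39 in 0.5MAhR and 5.18 ± 0.20 in Control (SD, n = 4 each). The difference was -0.29 (SE 0.15, 95% interval -0.63 to 0.04; limma, unadjusted p = 0.0816, adjusted p = 0.844). It was -0.45 without replicate 4 of 0.5MAhR and -0.13 without replicate 2 of 0.5MAhR. A second G6pc probe had a difference of -0.03 (SE 0.36).

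Pck1 had ratios of 3.71, 3.60, 3.60 and 4.24 in 0.5MAhR, against 3.65, 3.55, 4.10 and 4.02 in Control. The ranges lay across one another, and replicate 4 of 0.5MAhR was again highest, as for G6pc. The Pck1 difference was -0.04 (SE 0.16, 95% interval -0.41 to 0.32; limma, adjusted p = 0.979). Slc37a4, the carrier that brings glucose-6-phosphate to glucose-6-phosphatase, had a difference of -0.12 (95% interval -0.28 to 0.05). Pc, pyruvate carboxylase, had a difference of 0.02 (95% interval -0.18 to 0.22).

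**Figure D2:**
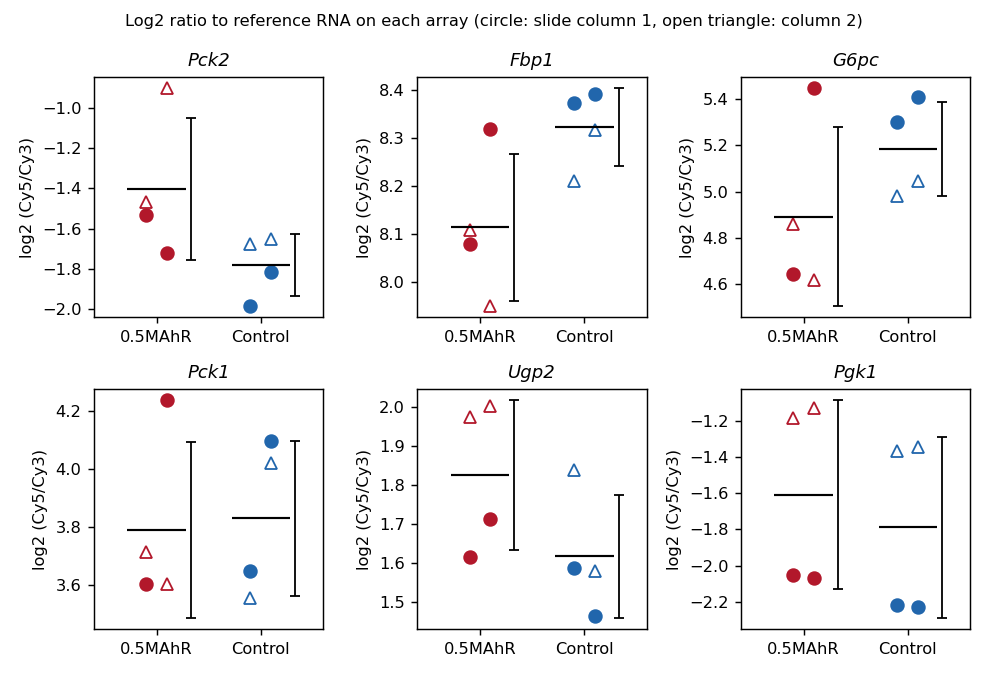
Log2 ratio to the reference RNA on each array for Pck2, Fbp1, G6pc, Pck1, Ugp2 and Pgk1, 0.5MAhR left and Control right (filled circle, slide column 1; open triangle, slide column 2; line, mean; bar, SD, n = 4). Replicate 3 of 0.5MAhR is the highest Pck2 array at -0.90, and the Pgk1 arrays split by slide column, from -1.37 to -1.13 in column 2 and from -2.23 to -2.05 in column 1.

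The hepatocyte markers had lower means in 0.5MAhR. This held for all 8, beside 53.2% of all genes tested, with a median difference of -0.11. In limma 2 of the 8, Fga and Cps1, had an unadjusted p under 0.05, beside the 2.84% of all genes that were lower at that p. All 5 Kupffer cell markers had higher means, beside 46.8% of all genes, with a median difference of 0.13. Their averages were 2.89 to 3.50 in 0.5MAhR and 2.79 to 3.23 in Control. In limma 1 of the 5, Adgre1, had an unadjusted p under 0.05, beside the 3.5% of all genes that were higher at that p. Within slide column 2, Cd163 (-0.12), Clec4f (-0.07) and Marco (-0.01) were lower in 0.5MAhR. Within slide column 1, the hepatocyte markers Tf, Apoa1, Apoh and Serpina1 were higher. The remaining markers of both types kept their direction in both columns. The part of these markers in the results was not tested, and in whole liver fewer cells of a type and less RNA per cell cannot be told apart. In the reference channel, Cy3 differences of the 28 members ran from -0.07 to 0.12. In limma 0 of them had an unadjusted p under 0.05 there.

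Of the uptake genes, 2 of 4 were higher and 2 lower, with a median difference of -0.0012. Slc2a2, the GLUT2 carrier of hepatocytes, had ratios of 6.94, 7.19, 7.21 and 7.37 in 0.5MAhR, against 7.48, 6.95, 7.16 and 7.13 in Control. Both groups covered the same range, and the difference was -0.0031 (95% interval -0.23 to 0.22). Slc2a1, the GLUT1 carrier common in cell lines, averaged -2.86 in both groups. The differences were -0.02 for Gckr, a regulatory protein of hepatic glucose phosphorylation, and 0.08 for Hk1, a hexokinase of many tissues. Hk1 was well above background on 4 arrays of 0.5MAhR and 2 of Control, so it was tested through the 0.5MAhR arrays alone. Hk2, the insulin-induced hexokinase of muscle and fat, had background-subtracted intensities of 4.75, 7.25, 1.5 and 3.25 in 0.5MAhR and 1.5, 3.5, 11 and 8.75 in Control, and no array was well above background.

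Of the 5 glycogen genes, 4 were higher and 1 lower, with a median difference of 0.04. Ugp2 makes UDP-glucose, the sugar donor for glycogen and for glucuronidation, and had ratios of 1.97, 1.61, 2.003 and 1.71 in 0.5MAhR, against 1.59, 1.84, 1.46 and 1.58 in Control. All 4 arrays of 0.5MAhR were above 3 of the Control arrays, and replicate 6 of Control lay among them. Ugp2 averaged 1.83 ± 0.19 in 0.5MAhR and 1.62 ± 0.16 in Control (SD, n = 4 each), a difference of 0.21 (SE 0.08, 95% interval 0.03 to 0.39; limma, unadjusted p = 0.0261, adjusted p = 0.706). Without the column in the fit, limma gave an unadjusted p of 0.138, and with slide row fitted beside the column, 0.0529.

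Gys2, the glycogen synthase of liver, had ratios of 5.09, 4.23, 5.08 and 4.54 in 0.5MAhR, against 4.17, 5.18, 4.30 and 5.14 in Control. The arrays fell into a high and a low set by slide column and not by group, and the difference was 0.04 (95% interval -0.16 to 0.24). Pygl, the liver phosphorylase that releases glucose from glycogen, had ratios of 1.24, 1.06, 1.29 and 1.37 in 0.5MAhR, against 1.26, 1.14, 1.35 and 1.15 in Control. Its difference was 0.01 (95% interval -0.18 to 0.20). Synthesis and breakdown each had an interval on both sides of 0. The branching enzyme Gbe1 (-0.0047) and phosphoglucomutase Pgm1 (0.06) had intervals of the same kind. Gbe1 was dim, with background-subtracted intensities of 27 to 54, and was well above background on 3 arrays of each group.

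Among the regulators, Irs2 carries the insulin signal inside the cell and had a difference of -0.10 (95% interval -0.28 to 0.08), with a lower mean in 0.5MAhR. Its signal was dim, with background-subtracted intensities of 21.5 to 60. Irs2 was well above background on 3 arrays of 0.5MAhR and 4 of Control. Ppargc1a, the coactivator that raises gluconeogenic genes in fasting, had background-subtracted intensities of 11, 9.25, 19 and 11.25 in 0.5MAhR and 10, 14, 5.25 and 22 in Control. No array was well above background for it, so it gives no comparison.

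Of the 11 measured glycolysis genes, 6 were higher and 5 lower, with differences from -0.09 to 0.18 and a median of 0.0085. Pgk1, phosphoglycerate kinase, had ratios of -1.18, -2.05, -1.13 and -2.07 in 0.5MAhR, against -2.22, -1.37, -2.23 and -1.34 in Control. In each slide column both 0.5MAhR arrays were above both Control arrays, but the columns differed far more than the groups. Pgk1 averaged -1.61 ± 0.52 in 0.5MAhR and -1.79 ± 0.50 in Control (SD, n = 4 each), a difference of 0.18 (SE 0.06, 95% interval 0.05 to 0.31; limma, unadjusted p = 0.0130, adjusted p = 0.598). Without the column in the fit, limma gave an unadjusted p of 0.573, and the slide column difference of Pgk1, column 2 minus column 1, was 0.89.

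Pfkfb1, the liver enzyme that makes and removes fructose-2,6-bisphosphate, the switch between glycolysis and gluconeogenesis, had ratios of 3.35, 4.14, 3.22 and 4.27 in 0.5MAhR, against 4.05, 3.24, 4.15 and 3.89 in Control. Both groups ran over nearly the same span, and the difference was -0.09 (95% interval -0.40 to 0.23). Pfkl, the liver subunit of phosphofructokinase, had a difference of 0.04 (95% interval -0.18 to 0.26). Pfkfb3, the form of proliferating cells, had background-subtracted intensities of -2.0 to 8.0 in 0.5MAhR and 3.5 to 7.0 in Control.

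Gapdh, glyceraldehyde-3-phosphate dehydrogenase, had ratios of -0.83, -0.43, -0.53 and -0.53 in 0.5MAhR, against -0.46, -0.60, -0.57 and -0.47 in Control. Replicate 1 of 0.5MAhR was lowest, the other 7 arrays lay close together, and the difference was -0.06 (95% interval -0.25 to 0.14). Ldha, lactate dehydrogenase A, had ratios of 0.10, 0.36, 0.06 and 0.16 in 0.5MAhR, against 0.17, 0.12, 0.25 and 0.42 in Control. Its difference was -0.07 (95% interval -0.28 to 0.14). The steps between, Gpi (0.03), Aldoa (0.04), Tpi1 (-0.02), Pgam1 (0.06), Eno1 (-0.01) and Pkm (0.0085), all had 95% intervals on both sides of 0.

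Khk phosphorylates fructose in the liver. It had ratios of 5.86, 5.66, 5.82 and 5.69 in 0.5MAhR, against 5.77, 5.81, 5.60 and 5.87 in Control. The difference was -0.0034 (95% interval -0.15 to 0.14), and the groups lay over one another.

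The same ratios place the liver against the proliferating cell lines of the reference. In Control livers 15 of 28 members were above the reference, beside 54.1% of all genes tested. They included 5 of 6 gluconeogenesis genes (all but Pck2), all 5 glycogen genes and Khk, but 2 of 11 glycolysis genes, Pfkfb1 and Ldha. Slc2a2 and Gckr were above it and Slc2a1 and Hk1 below it. Pkm, the pyruvate kinase of muscle and dividing cells, averaged -3.19 in 0.5MAhR and -3.20 in Control, and Aldoa, the muscle aldolase, -3.33 in 0.5MAhR and -3.36 in Control. All arrays had liver in Cy5, so a dye bias of a probe is part of its ratio to the reference, while it is shared by both groups.

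**Figure D3:**
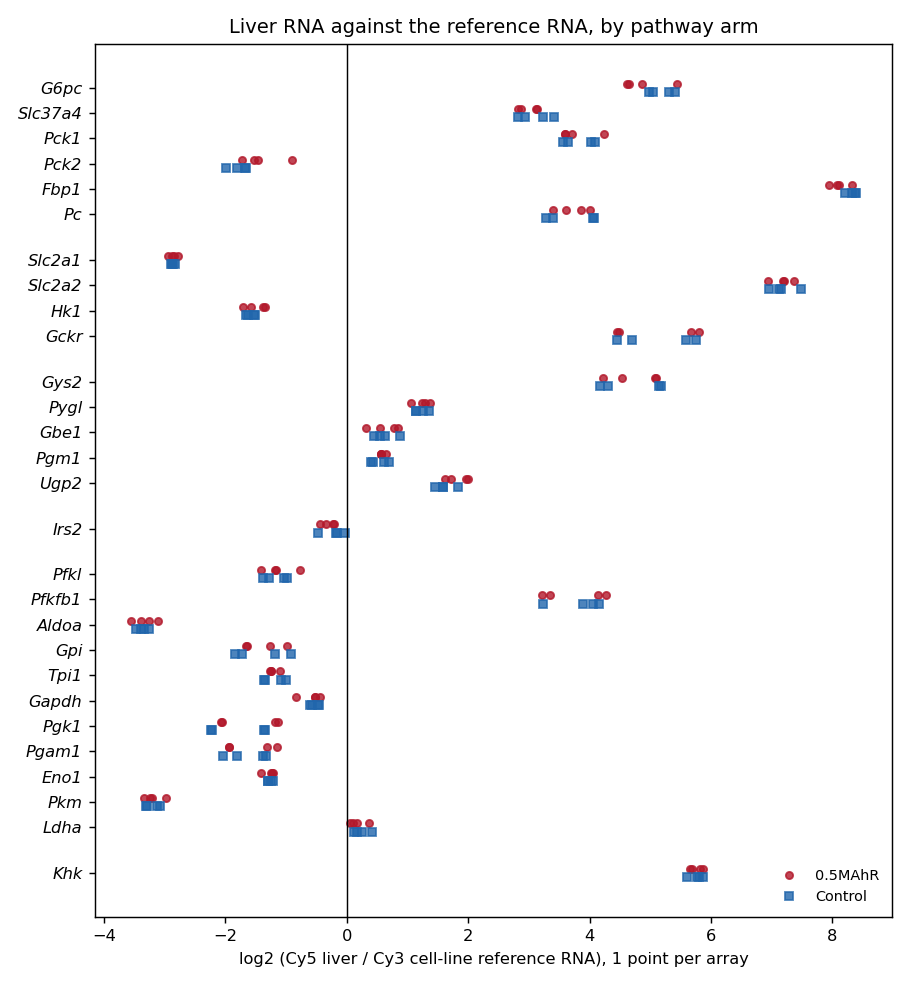
Log2 ratio of liver RNA to cell-line reference RNA, 1 point per array, for the 28 measured genes by pathway arm (0.5MAhR red circles above, Control blue squares below). Most gluconeogenesis and glycogen genes lie right of 0, most glycolysis genes left of it, and the groups lie over one another within each gene.

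Like the genes tested as a whole, these genes differed more between slide columns than between groups. In absolute size, the median column difference was 0.23 for the members and 0.28 over all genes tested. The median group difference in absolute size was 0.04 for the members and 0.07 over all genes tested. The difference between slide columns passed limma's adjusted threshold for 14 of the 28 members, beside 56.9% of all genes tested, and 9 were higher in column 2 and 5 lower. It was larger in size than the group difference for 24 of the 28. Gckr had the widest, at -1.19 (column 2 minus column 1), and Gys2 (0.82), Pfkfb1 (-0.73), Pgam1 (-0.64), Gpi (0.63) and Pc (0.58) came next after Pgk1. Fitting the column brought the median SE of the member differences to 0.08, against 0.13 without it.

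Within the columns, 10 of 28 members had a group difference of the same sign in both (35.7%), beside 51.8% of all genes tested. The median member difference was 0.05 in column 1 and -0.05 in column 2. The members whose 2 arrays of 0.5MAhR lay beyond both Control arrays in each column, in the same direction, were Pck2, Ugp2 and Pgk1 above and Fbp1 below, 14.3% beside 6.69% of all genes (3.28% above and 3.41% below). This count was chosen after the values had been seen and takes the same members as the unadjusted p. For Pck2 the difference was 0.27 in column 1 and 0.48 in column 2, for Ugp2 0.14 and 0.28, for Pgk1 0.16 and 0.20, and for Fbp1 -0.18 and -0.23. G6pc kept its sign too, at -0.31 in column 1 and -0.27 in column 2, while Pck1 had 0.05 in column 1 and -0.13 in column 2.

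**Figure D4:**
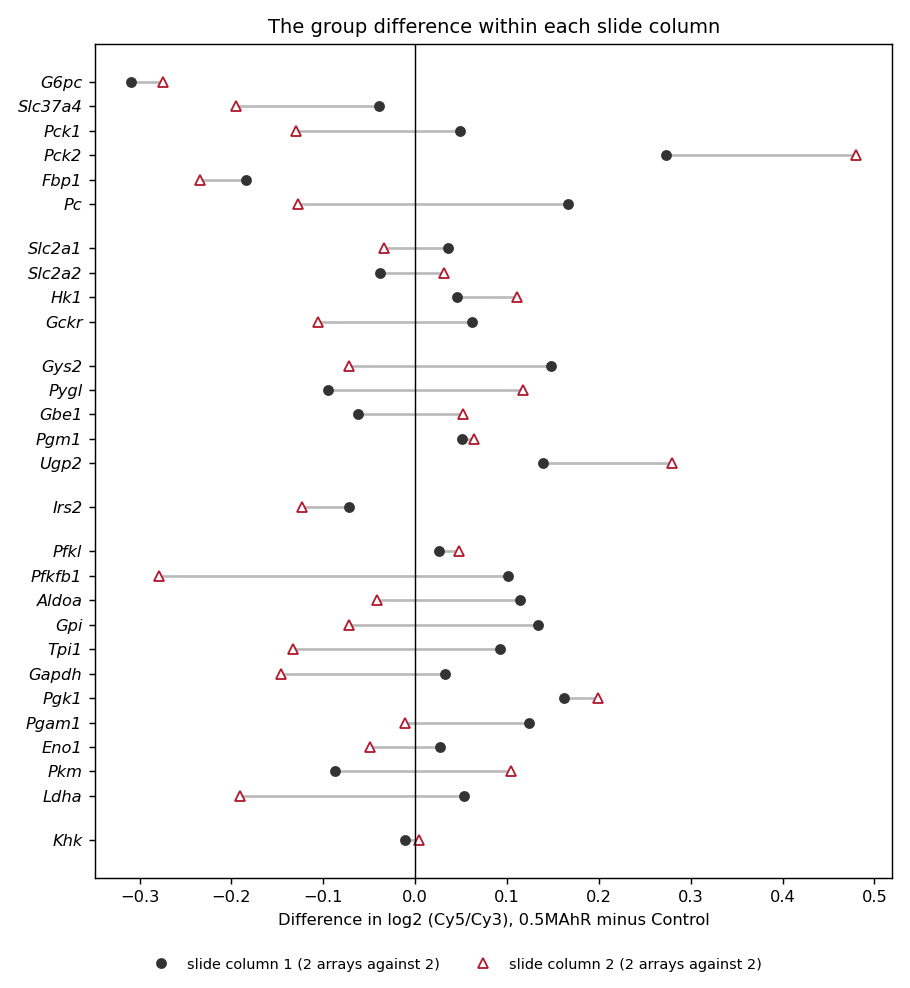
Difference in log2 ratio, 0.5MAhR minus Control, within slide column 1 (filled circles) and slide column 2 (open triangles), each from 2 arrays against 2. The symbols lie on the same side of 0 for 10 of the 28 genes, among them G6pc, Pck2, Fbp1, Ugp2 and Pgk1.

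Besides G6pc, 3 genes had more than 1 measured probe. The 3 Gapdh probes had group differences of -0.06, 0.01 and -0.00032, but column differences of -0.11, 0.76 and 0.37. The 2 Tpi1 probes had group differences of -0.02 and -0.03, with column differences of 0.20 and -0.72. The 2 Pfkl probes had group differences of 0.04 and -0.03, with column differences of -0.32 and -0.54. Over these 3 genes the group differences ran from -0.06 to 0.04, while the column differences of the Tpi1 probes, and of the Gapdh probes, had opposite signs.

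**Figure D5:**
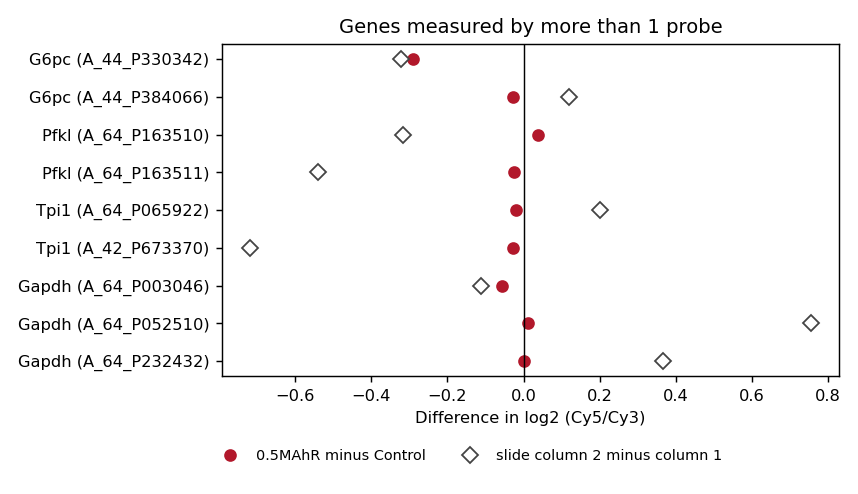
Group difference (0.5MAhR minus Control, filled circles) and slide column difference (column 2 minus column 1, open diamonds) in log2 ratio for each measured probe of G6pc, Pfkl, Tpi1 and Gapdh. Group differences other than that of the brighter G6pc probe lie near 0, while column differences run from -0.72 to 0.76.

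A wider list of 64 genes of glucose metabolism and its hormonal control gave 45 measured genes, 21 higher and 24 lower in 0.5MAhR, with a median difference of -0.03. None passed the adjusted threshold, and 4 had an unadjusted p under 0.05, beside 6.34% of all genes. Slc16a1, the carrier of lactate and pyruvate, had ratios of 0.72, 0.88, 0.94 and 0.76 in 0.5MAhR, against 1.00, 1.31, 0.98 and 1.33 in Control. The groups did not overlap, and the difference was -0.33 (SE 0.09; limma, unadjusted p = 0.00396, adjusted p = 0.415). Ppp1r3c, which brings protein phosphatase 1 to glycogen, had ratios of 3.04, 2.95, 2.13 and 3.12 in 0.5MAhR, against 3.87, 2.98, 3.49 and 3.21 in Control, a difference of -0.58 (SE 0.18; limma, unadjusted p = 0.00915, adjusted p = 0.514). Replicate 3 of 0.5MAhR was lowest there, as it was for G6pc and Fbp1 and highest for Pck2.

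Insr, the insulin receptor, had a difference of -0.30 (SE 0.11; limma, adjusted p = 0.640), and Tkfc, which phosphorylates glyceraldehyde from fructose, had 0.29 (SE 0.10; limma, adjusted p = 0.657). Pklr, the pyruvate kinase of liver, had a difference of 0.08 (SE 0.12).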

How the data were processed

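Liver RNA of 4 pools of 0.5MAhR and 4 of Control was hybridised to 2-colour Agilent arrays, with the sample in Cy5 on all of them. Per the file headers, the scanner software was Agilent Feature Extraction 11.0.1.1, which gave the spot intensity values and the marks for spots outlying or well above background. Median signals were used, since mean signals, named in the design, were not among the columns used here. The deposited table held log2 ratios. The labels do not say how the authors made them. They correlated at r of 0.997 to 0.998 with loess ratios without background correction, which settled scale and direction. Their column medians were -0.0389 to -0.0326, and how they were centred is unknown. Precision is limited by there being 4 arrays a group.

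The arrays were analysed with limma 3.58.1 in R 4.3.3, using normexp (offset 50) for the background and loess within each array, without outlier spots and with the mean over the spots of a probe. Accessions gave 18005 of 30367 probes a symbol through a RefSeq table of GRCr8, used for names and promoters only; the arrays were designed on another build. A probe was tested if its Cy5 signal was well above background on 3 or more of a group's 4 arrays, and the brightest probe represented each gene. Groups were compared with lmFit and eBayes, slide column as a covariate, two-sided, with Benjamini-Hochberg adjustment over 10566 genes or unnamed probes at 0.05. The fit was tested on simulated data. All p-values and intervals of single genes are limma's. Alternatives changed the column term, the arrays, background, normalisation, channel, filter, probe rule and prior.

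The members and lists were chosen with earlier results of these data known. By rule, values on every array are given for members with an unadjusted p under 0.05 with or without the column, members with non-overlapping groups, and 11 listed genes (G6pc, Pck1, Slc2a2, Hk2, Gys2, Pygl, Ppargc1a, Pfkfb1, Gapdh, Ldha and Khk). Of the wider list, those with an unadjusted p under 0.05 are named, and Pklr was added outside the rule after its value was seen. Some genes of the wider lists are not reported here by name.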

Additional observations from a re-analysis of the deposited data

Results flagged for a closer look

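Each member was examined in each group for an array that stands apart from the other 3, with Dixon's test. Of 56 groups of 4 arrays, 2 had one, and chance gives about 1 in 20 groups. Pgm1 was 0.655 on replicate 2 of 0.5MAhR, with the other 0.5MAhR arrays at 0.564 to 0.570, a gap of 0.935 of the whole range. Tpi1 was -1.10 on replicate 3 of 0.5MAhR, with the other 0.5MAhR arrays at -1.26 to -1.25, a gap of 0.903 of the whole range. In both the gap came from the closeness of the other 3 arrays, and neither array lay outside the Control range of its gene, which was 0.39 to 0.69 for Pgm1 and -1.37 to -0.997 for Tpi1.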

How the results depend on the processing

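No glucose metabolism gene passed the adjusted threshold under any of 23 alternatives. G6pc, Slc37a4, Pck2, Fbp1, Pgm1, Ugp2, Irs2 and Pgk1 (8 of 28) kept the sign of their difference in all of these that were run for them, and the other 20 changed sign at least once around differences near 0. Leaving out the column, adding slide row, changing the filter on dim probes or changing the prior gave the same member differences. These alternatives could not change a sign, so their agreement carries no weight. With them included, of 641 recomputed member differences, 636 lay within 1 SD of the reported value. The other 5 were Hk1 (0.31) and Pygl (-0.12) with the scanner software's processed signals, Slc2a1 (0.07) in the deposited table, Eno1 (0.07) with median centring, and Fbp1 (-0.05) in Cy5 alone. The causes were not tested.

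Members with an unadjusted p under 0.05 numbered 4. They numbered 0 without the slide column in the fit, within column 1 and with median centring, 1 within column 2 (Pck2), 2 in Cy5 alone (Pck2 and Pgk1), 3 with slide row fitted beside the column (Pck2, Fbp1 and Pgk1; Ugp2 had 0.0529), and 2 to 4 with 1 array left out. Over all genes, 5 passed the adjusted threshold. That count was 1 without the slide column, 2 within column 1, 3 with median centring, with a trended robust prior, and with probes above background on all 8 arrays (fewer genes tested), 14 in Cy5 alone, and 1 to 11 with 1 array left out. It was 0 within column 2 (591 at an unadjusted p under 0.05 in limma) and 0 with processed signals (815). No paired analysis by replicate number was possible because the groups share none, 1 to 4 in 0.5MAhR and 5 to 8 in Control. Each slide row held 1 array of each group, and with row and column fitted 5 genes passed the adjusted threshold and no member did. Mean signals were not run. Signal over background limited Hk2, Ppargc1a and Pfkfb3, which stayed unmeasured. Hk1, Gbe1 and Irs2 were measured but were not well above background on all 8 arrays.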

Other observations

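Genes that respond to feeding and fasting were looked at beside the glucose genes, since weanling pups may differ in their last meal. Of 17 listed genes, 12 were measured, 7 higher and 5 lower in 0.5MAhR, with a median difference of 0.25, beside -0.0077 over all genes tested. In limma 0 passed the adjusted threshold, while an unadjusted p under 0.05 was found for 5. Me1, the malic enzyme that supplies NADPH for fat synthesis, had ratios of -0.77, -0.69, 0.17 and -0.89 in 0.5MAhR, against -1.08, -1.56, -1.38 and -0.83 in Control, a difference of 0.66 (SE 0.22; limma, adjusted p = 0.599). Replicate 3 of 0.5MAhR was highest, as it was for Pck2. Thrsp, a lipogenic gene of the fed liver, had a difference of 0.28 (SE 0.11), and its reference channel differed by 0.48 in the same direction. Sik1, a kinase induced by cAMP, had a difference of 0.27 (SE 0.11).

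Angptl4, a fasting-induced inhibitor of lipoprotein lipase, had ratios of 3.12, 3.26, 3.11 and 3.19 in 0.5MAhR, against 3.88, 3.41, 3.27 and 3.33 in Control. The groups did not overlap, by a narrow margin, and the difference was -0.30 (SE 0.12; limma, adjusted p = 0.716). Igfbp1, which rises in fasting, had a difference of -0.34 (SE 0.36). The labels do not give the time since the last meal, and its part in these values was not tested.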
